A study of Mus musculus with 5 samples.

Results

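The regions described here are the peaks of the DMSO library on mouse chromosomes 8 and 9 that share no base with any peak of 2 CHIR99021 libraries. They were chosen by these overlaps, and chromosomes 8 and 9 were selected on their high density of DMSO peaks in an earlier look at the same list. The rule found 2318 such peaks, 1195 on chromosome 8 and 1123 on chromosome 9, out of 12734 DMSO peaks in all. They make up 88.4% of the 2622 DMSO peaks on these chromosomes. On the other 17 autosomes the same rule kept 8408 of 9963 peaks (84.4%), and over all chromosomes it kept 10827 (85.0%). Most DMSO peaks thus met the rule on every autosome.

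The study mapped β-catenin on chromatin by ChIP-seq in a V6.5 mouse embryonic stem cell line whose Ctnnb1 gene carries a knocked-in biotin-acceptor and 3xFLAG tag. All groups share this tagged line and its culture in serum with LIF on feeder cells from DR4 mice, and ChIP started from 10000000 cells of a fraction enriched for stem cells by letting other cells settle. The ChIP groups were CHIR99021 at 3 µM captured with anti-FLAG, CHIR99021 at 3 µM captured with streptavidin, and DMSO captured with streptavidin, each with 1 library. Inputs from CHIR99021-treated and from DMSO-treated cells, 1 of each, served as the controls of the peak calls. The labels give DMSO the same 3 µM as the compound, and they give 16 hours of treatment in the protocol against 24 hours in the text of the series. The DMSO library is labelled streptavidin and its alignment file is named for biotin, while its run is named for FLAG. The protocol names the tagged cells as Ctnnb1-BioFLneo;BirA, BirA being the ligase that biotinylates the tag. It also names BirA cells without the tag, which were not analysed here, so signal that does not depend on tagged β-catenin was not measured. All libraries come from this 1 tagged line.

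β-Catenin is the transcriptional arm of canonical Wnt signalling. Without a Wnt signal, GSK3 and its partners in the destruction complex mark it for degradation. When GSK3 is inhibited, as by CHIR99021, the protein accumulates, enters the nucleus and is brought to DNA mainly by the TCF/LEF family, since it has no DNA-binding domain of its own. In embryonic stem cells this arm of the pathway is known for relieving repression by TCF7L1, a TCF family member, and so favouring self-renewal.

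With 1 library per group there is no replicate error, and no test across samples was possible. Intervals are 95% intervals over peaks or counts and cover counting error only. MACS used a fragment shift, its value d, of 30 bp for DMSO, against 185 bp for CHIR99021 anti-FLAG and 214 bp for CHIR99021 streptavidin. Those 2 libraries had 16100920 and 11934863 unique tags, and the DMSO depth is unknown. Peak counts, lengths and folds were therefore compared only between chromosomes within 1 list. All coordinates are mm9. No genome or gene annotation of that build was at hand, so the peaks are given by position, without genes, exons or sequence.

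Density was the feature that stood out. Over the span from the first to the last peak of any list, chromosome 8 held 9.29 of these peaks per Mb (95% Poisson interval 8.77 to 9.83) and chromosome 9 held 9.30 (8.76 to 9.86). The other 17 autosomes ranged from 3.41 on chromosome 14 to 5.35 on chromosome 11, with a median of 3.72. Chromosomes 8 and 9 were thus at 2.50 times the median of the others, both by the same factor, and the densest of the others was at 1.44 times. Together they made up 10.4% of the autosomal span and carried 21.6% of the 10726 autosomal peaks of this kind. As the chromosomes were picked for this density, it is a description and was not tested.

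The other lists rose less on the same chromosomes. DMSO peaks that lay inside CHIR99021 peaks reached 1.10 per Mb on chromosome 8 and 1.35 on chromosome 9, or 1.59 and 1.95 times the median of the other autosomes (0.691 per Mb, highest 0.926). CHIR99021 anti-FLAG peaks stood at 1.08 times that list's median on chromosome 8 and 1.32 times on chromosome 9. CHIR99021 streptavidin peaks stood at 1.11 and 1.30 times. Chromosome 8 lay inside the range of the other autosomes in both CHIR99021 lists, whose highest values were 1.24 and 1.23 times the median, and chromosome 9 lay just above it.

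**Figure D1:**
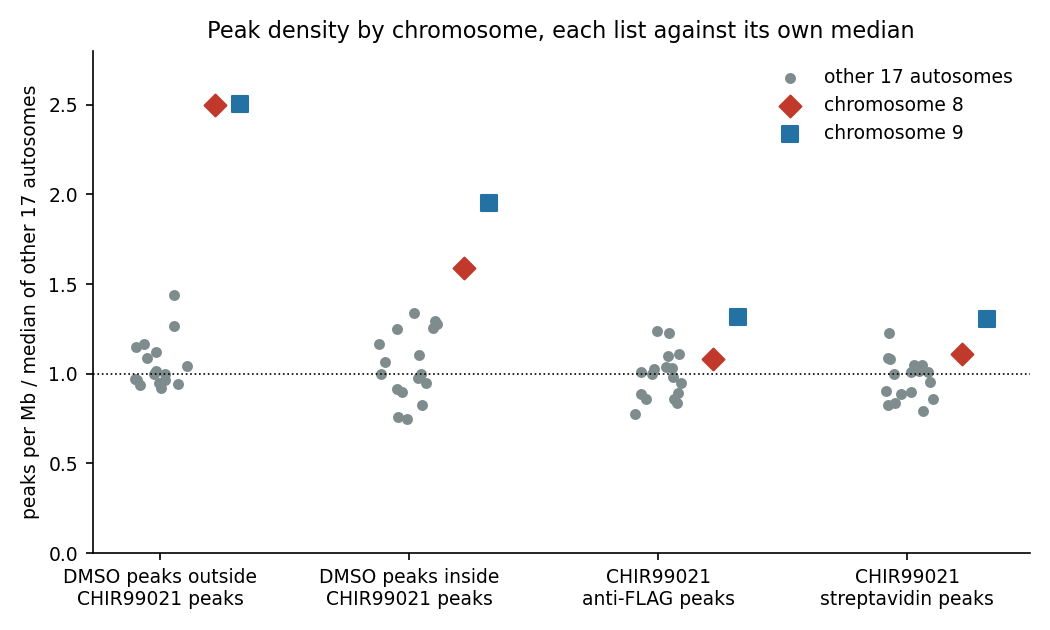
Peaks per Mb on each autosome, divided by the median of the other 17 autosomes of the same list. Each grey point is 1 of those 17 chromosomes, the diamond is chromosome 8 and the square chromosome 9. DMSO peaks outside CHIR99021 peaks reach 2.50 on both chromosomes, DMSO peaks inside them 1.59 and 1.95, and the CHIR99021 lists at most 1.32.

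Raw tags, the number of sequenced tags that MACS counted in a peak, were few. Of the 2318 peaks, 1680 (72.5%, exact interval 70.6 to 74.3%) held 6 tags, the smallest count in the DMSO list. A further 343 held 7, 230 held 8 or 9, and 65 held 10 or more. Chromosomes 8 and 9 had nearly the same profile, with 71.5% (68.8 to 74.0%) and 73.6% (70.9 to 76.1%) of peaks at 6 tags. On each of the other 17 autosomes that share was higher, from 74.5% on chromosome 17 to 83.0% on chromosome 10, and pooled over them it was 79.8% (79.0 to 80.7%). Chromosomes 17, at 70.1 to 78.5%, and 18, at 71.9 to 81.2%, had intervals that overlapped those of both chromosomes 8 and 9. The intervals of chromosomes 2, 3, 4, 11, 15 and 19 overlapped that of chromosome 9 but not that of chromosome 8.

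The density ratio also depended on the tag count. At 6 tags chromosome 8 lay at 2.23 times the median of the other autosomes (2.08 to 2.38) and chromosome 9 at 2.30 times (2.14 to 2.46). At 7 tags the ratios were 3.42 (2.94 to 3.95) and 3.11 (2.64 to 3.63), and at 8 or 9 tags they were 3.58 (2.98 to 4.26) and 3.14 (2.57 to 3.81). At 10 or more tags they were 3.93 (2.65 to 5.61) and 4.88 (3.40 to 6.79). From 7 tags up the intervals overlapped one another on each chromosome. Over all DMSO peaks, inside CHIR99021 peaks or not, the ratio was also lowest at 6 tags but did not rise at each step. It was 2.08, 3.09, 2.92 and 2.50 on chromosome 8 and 2.16, 2.94, 2.72 and 3.08 on chromosome 9, in the same order of classes. The intervals treat the median of the other autosomes as fixed. In the top class that median rested on few peaks: the 30 peaks on chromosome 8 and 35 on chromosome 9 stood against 2 to 15 per chromosome elsewhere. Chromosomes 8 and 9 held 33.9% of autosomal peaks of this kind with 10 or more tags, against 21.6% of those with any count. Of all autosomal DMSO peaks with 10 or more tags they held 23.6%.

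**Figure D2:**
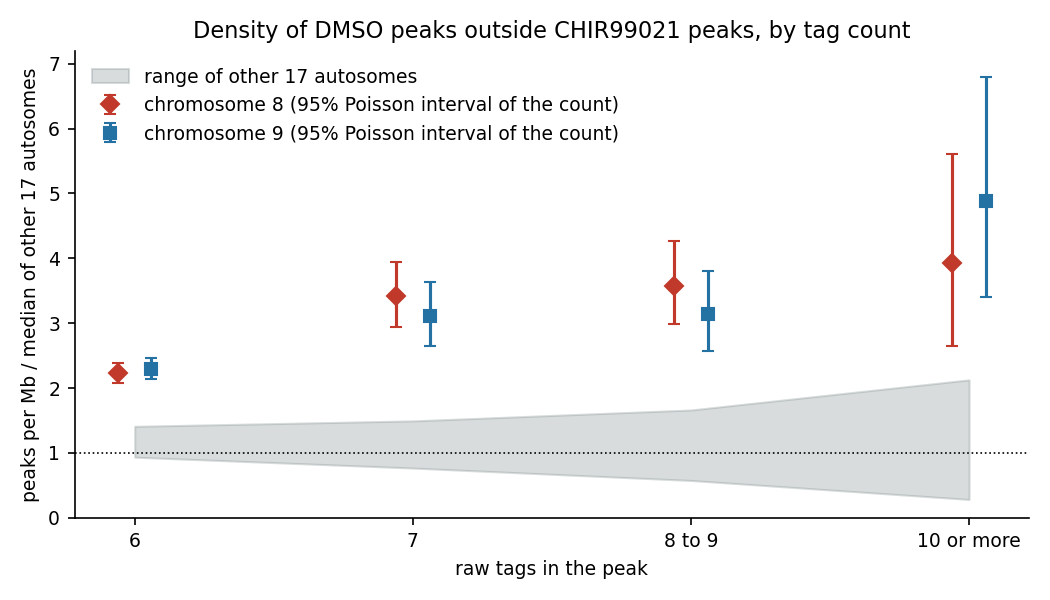
Density of DMSO peaks outside CHIR99021 peaks by raw tag count, as a ratio to the median of the other 17 autosomes. Bars on the points are 95% Poisson intervals of the count and the grey band is the range of the other autosomes. Both chromosomes lie above the band in all 4 classes, at 2.23 and 2.30 for 6 tags and at 3.93 and 4.88 for 10 or more.

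DMSO peaks inside CHIR99021 peaks had lower ratios at each tag count. The choice of chromosomes rested mostly on 6-tag peaks outside CHIR99021 peaks, so this difference is a description. At 6 tags their density was 1.08 times the median of the others on chromosome 8 (0.751 to 1.50) and 1.38 times on chromosome 9 (0.993 to 1.86). At 10 or more tags it was 2.18 (1.63 to 2.85) and 2.67 (2.04 to 3.43). These peaks inside also held more tags: 37.5% of the 304 on chromosomes 8 and 9 held 10 or more, against 65 of the 2318 outside (2.80%). The other 17 autosomes showed the same contrast, with 29.0% inside and 1.51% outside. By median fold over the local background the peaks inside were lower on chromosomes 8 and 9, at 17.2 against 22.12 outside. The same held on the other 17 autosomes, at 20.16 against 28.41.

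The peaks were short. Their median length was 73 bp on both chromosomes, with quartiles of 61 and 83 bp, and the other 17 autosomes had medians of 72 to 75 bp. Median length thus did not set chromosomes 8 and 9 apart. Length followed the tag count: the median was 70 bp at 6 tags (range 33 to 89 bp), 80 bp at 7 to 9 tags and 108 bp at 10 or more. Of the 2318 peaks, 65 (2.80%) were longer than 100 bp, 3 were longer than 200 bp and none was longer than 1000 bp. On the other 17 autosomes 126 of 8408 (1.50%) were longer than 100 bp, 9 were longer than 200 bp and 2 were longer than 1000 bp. In sum the 2318 peaks covered 86.3 kb of chromosome 8 and 81.1 kb of chromosome 9, or 671 and 672 bp per Mb. The other autosomes had between 244 and 413 bp per Mb.

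The peak with the most tags on chromosome 8 was chr8:108042762-108043041, 280 bp long, with 47 tags and a fold enrichment of 15.9 over the local background. Fold enrichment and p score (10 times −log10 of the p-value, with 50 at the cutoff) are the authors' values for single peaks. It also had the highest p score of these peaks on either chromosome, 249.51. Next came chr8:108046957-108047241, 285 bp long, with 33 tags, a p score of 244.57 and a fold of 23.77. Between them lay chr8:108046055-108046135 with 13 tags and chr8:108046672-108046774 with 12. These 4 peaks, 105 tags in 4480 bp, formed the group with the most tags among these peaks on both chromosomes, and the nearest CHIR99021 peak was 45426 bp from the first of them.

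The other leading peaks by tag count on chromosome 8 were weaker by p score. The peak chr8:107777913-107778181 held 25 tags over 269 bp at a fold of 4.96 and a p score of 54.96. It was followed by chr8:19977696-19977806 with 16 tags and chr8:33406132-33406297 with 14. Their p scores were 61.3 and 97.53, and their folds 9.55 and 17.44, so many tags did not always go with a high score. By p score the third place on chromosome 8 went to chr8:71049676-71049770, which reached 121.08 from 11 tags at a fold of 46.92.

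On chromosome 9 the tag count was led by a peak unlike the others. The peak chr9:15124212-15124289 held 90 tags within 78 bp at a fold of 3.1 and a p score of 67.68. The next 4 were chr9:51623869-51624018 with 15 tags, then chr9:55923276-55923427, chr9:59887862-59887989 and chr9:21592375-21592532 with 14 each. A further peak tied with the last of these in tags and p score and was left out by coordinate alone. No other peak of this kind on chromosome 9 had more than 15 tags. The highest p scores there came from peaks of 10 tags, chr9:115090472-115090544 with 124.09, chr9:7604732-7604802 with 120.97 and chr9:71354543-71354628 with 120.12. The longest peaks were chr9:20953206-20953367, at 162 bp with 12 tags, and after it 2 of those with 14 tags.

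The 65 peaks of 10 or more tags lay in many windows, but some lay close together. They fell in 50 of the 251 windows of 1 Mb on both chromosomes, 21 windows on chromosome 8 and 29 on chromosome 9. The median distance between neighbours among them was 1.26 Mb on chromosome 8 and 1.67 Mb on chromosome 9. The group of 4 within 4480 bp on chromosome 8 belongs to them. Of the 65 peaks, 52 held 10 to 12 tags. Their lengths ran from 70 to 285 bp, and their folds from 3.10 to 51.61 with a median of 16.1. The distance to the nearest CHIR99021 peak ran from 199 bp to 98.6 kb, with a median of 19.6 kb.

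Neighbouring peaks lay closer together than on the other autosomes. The median distance between the midpoints of neighbours was 55.8 kb on chromosome 8 and 61.0 kb on chromosome 9, with quartiles of 18.4 and 124 kb and of 23.1 and 136 kb. On the other 17 autosomes the median was 104 to 168 kb. Neighbours within 100 kb made up 67.6% and 65.9% of pairs, against 34.2 to 49.1% elsewhere. Divided by the mean distance of the same chromosome, the median was 0.518 of the mean on chromosome 8 and 0.566 on chromosome 9, within the 0.442 to 0.585 of the others.

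**Figure D3:**
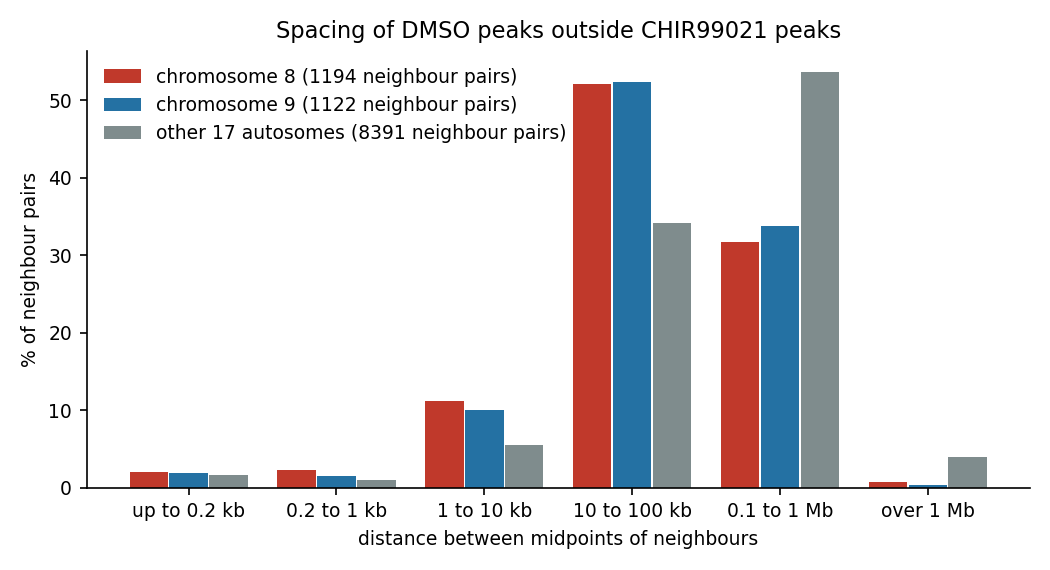
Share of neighbour pairs, in percent, by the distance between the midpoints of neighbouring DMSO peaks outside CHIR99021 peaks. On chromosomes 8 and 9 the class of 10 to 100 kb is the fullest, with 52.1% and 52.4% of pairs, and on the other 17 autosomes it is that of 0.1 to 1 Mb, with 53.7%.

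Close neighbours mostly had summits 75 to 200 bp apart. On chromosomes 8 and 9 together 88 pairs of neighbours had summits within 1 kb, and 50 of these (56.8%) fell in that range. No summits lay closer than 82 bp. On the other autosomes 131 of 224 such pairs (58.5%) fell in the same range, a similar share. Ranked by the distance between midpoints, the closest pairs on chromosome 8 were chr8:27433354-27433402 with chr8:27433442-27433492, with summits 89 bp apart, and chr8:4140178-4140256 with chr8:4140264-4140352, 83 bp apart. On chromosome 9 they were chr9:121280499-121280582 with chr9:121280588-121280635, 83 bp apart, and chr9:113510721-113510777 with chr9:113510795-113510882, 104 bp apart. Each of these 8 peaks held 6 to 9 tags.

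Most peaks stood alone. When neighbours within 10 kb were joined, 1699 of the 2318 (73.3%) had no partner, 241 groups were pairs and 42 groups had 3 or more peaks. On the other autosomes 84.6% stood alone. A fixed reach of 10 kb joins more peaks where they are denser, so this difference was not separated from that in density. The group with the most peaks, 7 with 54 tags in all, lay at chr8:19927559-19946596. The next, 6 with 41 tags, lay at chr9:46777191-46793633. Neither held a CHIR99021 peak, and no peak in them had more than 10 tags. These groups, and the group of 4 on chromosome 8, were singled out after their values were seen.

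The high density ran along most of the length of both chromosomes. In windows of 10 Mb of which at least 5 Mb lay within the span, chromosome 8 had between 2.40 and 16.2 peaks per Mb and chromosome 9 between 5.96 and 14.2. The median of 220 such windows on the other autosomes was 3.72, their 90th percentile 6.10 and their highest value 9. Of 13 windows on chromosome 8, 12 lay above that median, 11 above the 90th percentile and 5 above the highest value. Of 12 windows on chromosome 9, the counts were 12, 11 and 5. The exception on chromosome 8 among these windows was chr8:50000001-60000000, with 24 peaks. The fullest windows of chromosome 8 were chr8:120000001-130000000 with 162 and chr8:10000001-20000000 with 140. Narrower bins showed further sparse stretches. In bins of 5% of the span, density fell to 2.18 per Mb at 75 to 80% of chromosome 8 and to 3.64 at 70 to 75% of chromosome 9. On chromosome 9 the fullest was chr9:40000001-50000000 with 142.

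**Figure D4:**
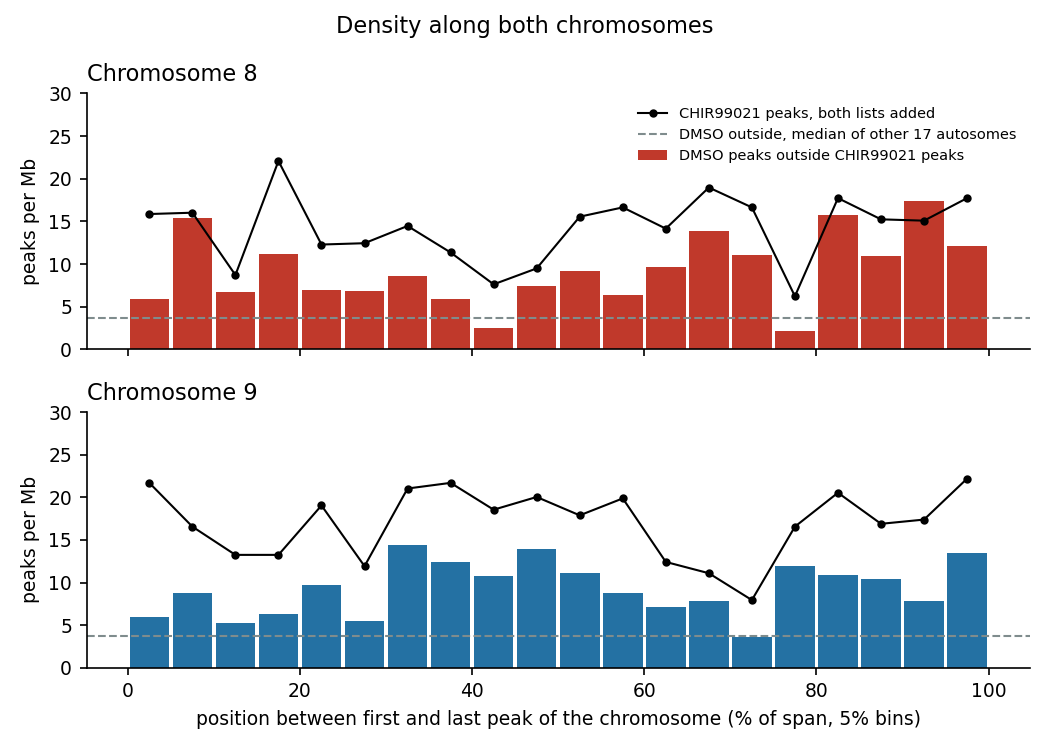
Peaks per Mb in bins of 5% of the span of chromosome 8 (top) and chromosome 9 (bottom). Bars are DMSO peaks outside CHIR99021 peaks, the black line adds the peaks of both CHIR99021 lists, and the dashed line is the median density of such DMSO peaks on the other 17 autosomes, 3.72. On chromosome 8 the lowest bars, 2.18 and 2.49 per Mb, stand where the black line is also lowest (6.22 and 7.62), and on chromosome 9 the lowest bar is 3.64.

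Counts varied from window to window. In windows of 1 Mb the mean count was 9.26 on chromosome 8 and 9.20 on chromosome 9, and the coefficient of variation was 0.643 and 0.523. On each of the other autosomes it was higher, from 0.646 to 0.879. That coefficient falls as the mean count grows. With the part due to counting taken off, the variance beyond the mean, divided by the squared mean, was 0.305 on chromosome 8, within the 0.168 to 0.486 of the others, and 0.165 on chromosome 9, just under that range. Windows without any such peak were 7 of 129 on chromosome 8 and 1 of 122 on chromosome 9, or 5.43% and 0.820% of windows. The other autosomes ranged from 2.52 to 20.7% with a median of 11.3%, so chromosome 8 lay inside their range.

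The fullest window of 1 Mb on chromosome 8 was chr8:108000001-109000000 with 26 peaks and 259 tags, which includes the group of 4. It held 8 anti-FLAG and 8 streptavidin peaks of CHIR99021. It was followed by chr8:11000001-12000000 and chr8:14000001-15000000 with 22 peaks each, none above 8 tags. On chromosome 9 the fullest were chr9:14000001-15000000 with 22 peaks and chr9:44000001-45000000 and chr9:120000001-121000000 with 19 each. No window on another autosome held more than 18.

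The widest stretches without such a peak were the 2.79 Mb between chr8:55635939-55635988 and chr8:58428714-58428829 and the 2.32 Mb between chr8:38490840-38490926 and chr8:40805977-40806011. The first held 3 anti-FLAG and 4 streptavidin peaks of CHIR99021, and the second 1 and 3. On chromosome 9 the widest were 1.28 Mb after chr9:92758611-92758688 and 1.23 Mb after chr9:18214670-18214753. The latter held 11 anti-FLAG and 4 streptavidin peaks of CHIR99021.

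Although they share no base with CHIR99021 peaks, these peaks were more numerous in the same megabases. Across windows of 1 Mb the Spearman correlation of their count with that of anti-FLAG peaks was 0.557 on chromosome 8 (129 windows) and 0.468 on chromosome 9 (122 windows). With CHIR99021 streptavidin peaks it was 0.573 and 0.519. The other autosomes had medians of 0.552 and 0.535 for the 2 lists. The windows share their mappable length and their chromatin, which were not measured, so these are descriptions.

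Chromosomes 8 and 9 had higher mean counts in each class of windows by anti-FLAG peaks. In windows with 0 to 3 anti-FLAG peaks the mean count was 3.61 on chromosome 8, 4.83 on chromosome 9 and 1.88 on the other autosomes. With 4 to 7 the means were 9.55, 7.58 and 3.86. With 8 to 11 they were 11.9, 9.73 and 5.21, and with 12 or more 12.3, 12.9 and 6.51. At matched anti-FLAG counts chromosome 8 thus lay at 1.89 to 2.48 times the others and chromosome 9 at 1.87 to 2.57 times. The windows of the others were pooled, so these ratios have no range by chromosome. They reuse the peaks for whose density the chromosomes were chosen, so they are descriptions. The part of CHIR99021 peak density in the number of DMSO peaks was not tested.

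Few of the peaks lay at the edge of a CHIR99021 peak. The median distance to the nearest one was 30.1 kb on chromosome 8 and 24.3 kb on chromosome 9, and the other autosomes ranged from 21.1 to 37.3 kb. Of the 2318, 61 (2.63%) were within 1 kb and 526 (22.7%) within 10 kb. On the other 17 autosomes the same shares were 3.22% and 23.3%, so this was not particular to chromosomes 8 and 9. The peaks just inside the rule were chr8:3407925-3408001 (6 tags) and chr8:12505061-12505172 (8 tags), whose ends lay 4 and 37 bp from the facing end of a CHIR99021 peak. On chromosome 9 they were chr9:42664925-42664989 (6 tags) at 12 bp and chr9:16591607-16591681 (7 tags) at 13 bp. Just outside the rule were chr8:129022700-129022774 (9 tags), which shared 7 bases, and chr8:55651089-55651126 (6 tags), which shared 17. On chromosome 9 the corresponding peaks, chr9:71983258-71983332 and chr9:61503652-61503703 (6 tags each), shared 28 and 29 bases. Peaks on both sides of the boundary thus held 6 to 9 tags.

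Among 6-tag peaks outside CHIR99021 peaks, fold enrichment was lower on chromosomes 8 and 9. This did not hold for 6-tag DMSO peaks inside CHIR99021 peaks. Their median fold was 22.12 for the 77 on chromosomes 8 and 9 together and 21.95 for the 542 on the other 17 autosomes. Over peaks inside of any tag count, however, median folds were lower on chromosomes 8 and 9. They were 16.83 and 17.2, against 18.43 to 24.58 on the other 17 autosomes. For 6-tag peaks outside, the median fold was 23.46 on chromosome 8 and 22.12 on chromosome 9, while the other 17 autosomes had medians from 25.81 to 29.27. Folds of 40 or more were seen in 5.62% (4.17 to 7.38%) of the 6-tag peaks of chromosome 8 and 3.27% (2.16 to 4.72%) of those of chromosome 9, against 9.89% (9.19 to 10.6%) of 6713 elsewhere. Folds under 20 were more frequent: those from 15 to 20 took 24.2% and 29.2%, against 14.2%. The denominator of the fold is the local background that MACS estimates, whose level is not a column of the list. Over peaks outside of any tag count, the median p score was 64.51 on chromosome 8 and 62.79 on chromosome 9, against 65.09 to 68.9 elsewhere.

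**Figure D5:**
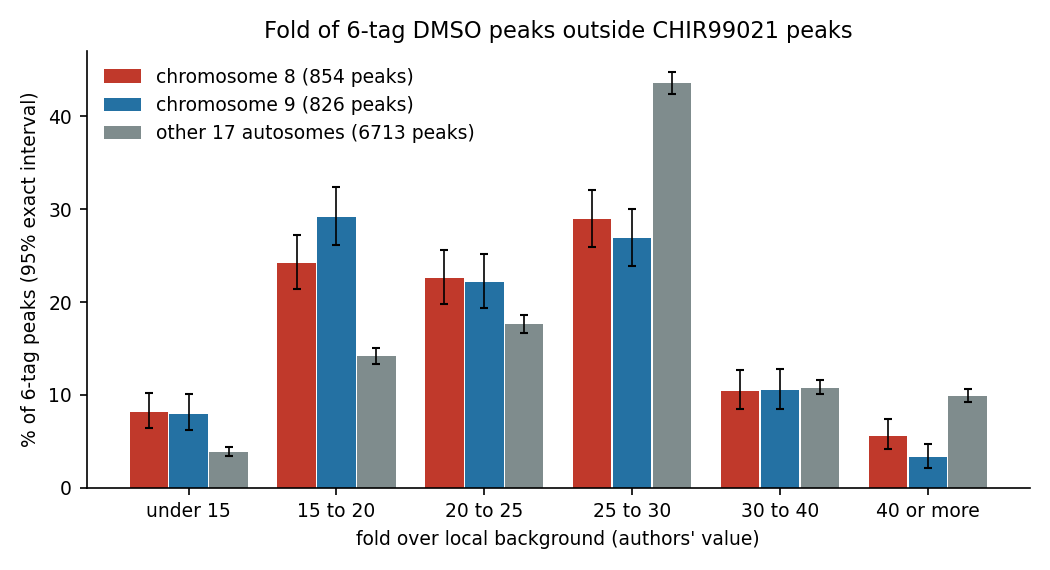
Share, in percent, of 6-tag DMSO peaks outside CHIR99021 peaks in classes of the authors' fold over local background, with 95% exact intervals. Chromosomes 8 and 9 hold more peaks in the classes from 15 to 20 (24.2% and 29.2% against 14.2%) and fewer in those of 25 to 30 and of 40 or more.

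CHIR99021 peaks on the same chromosomes, which the rule did not count, also differed from those elsewhere. They did so in median tags and median length, which did not set the DMSO peaks described here apart, and in fold. The median anti-FLAG peak held 48 tags on chromosome 8 and 48 on chromosome 9, against medians of 36 to 41 on the other 17 autosomes. The median CHIR99021 streptavidin peak held 43 and 41 tags, against 29 to 36. Their fold enrichments were lower at the same time, with anti-FLAG medians of 7.45 on both chromosomes against 7.53 to 8.41, and streptavidin medians of 7.59 and 7.80 against 8.05 to 8.79. The CHIR99021 peaks were also longer there. Median anti-FLAG lengths were 954 and 951 bp against 824 to 896 bp, and streptavidin lengths 1043 and 1026.5 bp against 855 to 972 bp. Chromosomes 8 and 9 were thus above the range of the other autosomes in tags per peak and in length, and below it in fold, in both CHIR99021 lists. Tags per peak were not adjusted for length. The part of these tag levels and backgrounds in the number of DMSO peaks was not tested.

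The false discovery rates of these peaks, as MACS gave them, ran from 3.02 to 20.64% with a median of 3.33%. Of the 2318, 1937 (83.6%) were at 5% or less and none was at 1% or less. On the other 17 autosomes 6332 of 8408 (75.3%) were at 5% or less, and likewise none was at 1% or less. The rate did not fall with the p score in this list: the 2 peaks of highest score had rates of 13.73 and 13.21%, and chr8:71049676-71049770 had the highest rate of all, 20.64%. A stricter rate therefore does not select the stronger peaks here.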

How the data were processed

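Peaks of 3 ChIP libraries were used, as deposited by the authors: per the file headers they come from MACS on ELAND-format alignments, 1 ChIP library against 1 input, at a p-value cutoff of 1.00e-05, a band width of 300 bp and tags of 25 bp. Which version of MACS was run is not given in the sources, and the build is mm9 per the submitters' processing notes. Per the file headers, each row gives a tag count, a false discovery rate in percent, a p score and the ratio (fold) of tags to the local background. The summit is an offset from the peak's start. The fragment shift differed between lists and bears on which small groups of tags pass and on peak length, so values were compared within a list.

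Peaks sharing at least 1 base were taken as overlapping. Densities used the span from the first to the last peak of the 3 lists on a chromosome, and counts along it used fixed windows of 1 and 10 Mb. A distance between peaks is the difference between their facing ends. Shares carry exact (Clopper-Pearson) intervals, counts exact Poisson ones. Chromosomes X and Y were left out. The peaks, lists and comparisons were chosen with earlier results of these data known. Named peaks followed a rule: per chromosome, the 5 with most tags, 3 by p score, 3 longest, the closest pairs, widest gaps, fullest windows and those nearest the overlap boundary. No design in this series allows a test across samples. The overlap and spacing code was tested on simulated lists and recovered all planted overlaps. Computation used pandas 2.3.3 and numpy 2.4.6 in Python 3.11.15, intervals used scipy 1.17.1, and figures used matplotlib 3.10.9.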

Additional observations from a re-analysis of the deposited data

How the results depend on the processing

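Of 66 alternatives to the values above, 42 fell inside the main value's interval or, for counts and coefficients of variation, within 1.5 times it, and 24 did not. A minimum of 7 tags left 341 peaks on chromosome 8 and 297 on chromosome 9, and one of 10 tags left 30 and 35. The density ratios, 2.50 on both chromosomes, became 3.67 and 3.40 with at least 7 tags and 3.93 and 4.88 with at least 10. They were 2.77 and 2.82 at a false discovery rate of 5% or less, and 2.26 and 2.31 with peaks within 10 kb counted once. From the medians of 1 Mb windows they were 3.00 and 3.17. Every alternative for density gave a ratio above 2. Each reused the peaks for whose density the chromosomes were chosen, so these ratios are no independent support. With at least 7 tags the median length was 81 bp, the median spacing 166 kb and 231 kb, and the coefficient of variation on chromosome 8 was 0.984. Means in place of medians gave 6.58 tags, a p score of 65.0, a fold of 23.8 and a false discovery rate of 4.19%. The median distance to a CHIR99021 peak, 27.3 kb against both lists, was 43.3 kb against anti-FLAG alone and 39.6 kb against streptavidin alone, where fewer peaks enter. No paired analysis was possible because there was only 1 library in a group, with no second to pair. The unknown depth of the DMSO library limits all statements on peaks of 6 tags.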
